A study of Mus musculus with 16 samples.

Results

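The genes described here are those of the vascular endothelium, the cell layer that lines blood vessels, together with Edn1, the gene of endothelin, a peptide that endothelial cells secrete. They were chosen by name: all probes whose gene symbol in the platform's probe table was Edn1, Cldn5, Ly6c1, Pecam1, Cdh5, Tek, Tie1, Kdr, Egfl7 or Vwf. Of these 10 genes, 9 had a probe, and 12 of the 25697 probes on the array were theirs. Cldn5 had no probe under its name in that table and was not analysed here. The RNA came from brain and liver of 8 male mice of the strain C57BL/6J at 17 weeks of age, with 1 array per mouse and tissue and 16 arrays in all. The groups were homozygous liver, wild-type liver, homozygous brain and wild-type brain, with 4 mice each, and the labels write the allele of all 8 mice as Pts-R15C-ki. Pts encodes an enzyme of the synthesis of tetrahydrobiopterin, a cofactor of nitric oxide synthases among other enzymes, and the study asked what a mild defect of that synthesis does. Whole tissue was used, so fewer endothelial cells, less RNA per endothelial cell and RNA from other cells cannot be told apart in any value below.

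Endothelin is made as a long precursor that endothelin-converting enzymes trim. The peptide acts on a pair of receptors, EDNRA and EDNRB, and is known as a strong constrictor of vessels, against which nitric oxide from the endothelial synthase NOS3 acts as a dilator. Of the other genes, Vwf encodes von Willebrand factor, which endothelial cells store and release for platelet adhesion. Pecam1 and Cdh5 encode adhesion molecules of endothelial junctions, Tek and Tie1 the receptor pair of the angiopoietins, and Kdr the main receptor of vascular endothelial growth factor. Egfl7 encodes a protein that endothelial cells secrete into the vessel wall, and Ly6c1 a surface protein abundant on mouse brain endothelium and found on some leukocytes.

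The promoter windows of Edn1 and Tek are shown because these genes lay furthest below and furthest above wild type among the members measured in homozygous brain. Each window holds 300 bases from RefSeq, assembly GRCm38.p6, 250 before the annotated start and 50 after it. The Edn1 window lies at chr13:42301226-42301525 on the plus strand, and the Tek window at chr4:94739039-94739338 on the plus strand. Capitals mark matches on either strand to GATAA (the core letters bound by GATA factors), ACGTG (the core of hypoxia-responsive elements) and TGACTNA (an AP-1-like motif). Elements of these kinds are known in the promoter of the human EDN1 gene.
Edn1: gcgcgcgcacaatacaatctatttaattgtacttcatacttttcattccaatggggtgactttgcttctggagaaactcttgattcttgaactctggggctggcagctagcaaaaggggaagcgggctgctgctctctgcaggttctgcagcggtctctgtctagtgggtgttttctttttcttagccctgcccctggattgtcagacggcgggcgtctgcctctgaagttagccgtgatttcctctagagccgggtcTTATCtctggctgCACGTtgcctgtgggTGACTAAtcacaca
Tek: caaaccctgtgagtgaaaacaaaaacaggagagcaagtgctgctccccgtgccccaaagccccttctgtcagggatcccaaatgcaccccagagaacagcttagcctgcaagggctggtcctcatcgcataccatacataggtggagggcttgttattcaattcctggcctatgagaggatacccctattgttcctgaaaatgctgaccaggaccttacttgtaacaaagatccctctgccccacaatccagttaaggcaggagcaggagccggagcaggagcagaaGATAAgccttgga
In the Edn1 window TTATC, the reverse complement of GATAA, stood at bases 9 to 13 after the annotated start, CACGT at 22 to 26 and TGACTAA at 37 to 43, and none of the matches overlapped another. The Tek window held GATAA at bases 38 to 42 after the start. Over all 32851 windows of this length in the RefSeq table, 25.4% held GATAA, 19.6% ACGTG and 13.9% TGACTNA. Windows were found for 7 of the 10 member genes, 10 windows in all, of which 3 held GATAA, 1 held ACGTG and 2 held TGACTNA on either strand. The core letters of ETS factors, AGGAAG, stood in 4 of the 10 windows and in 35.4% of all windows, and the TATA box letters, TATAAA, in 1 of the 10 and in 13.6% of all. The letters of the AP-1-like motif were settled after the Edn1 window had been read, so these matches are a description only.

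A probe counted as detected on an array where its signal passed the negative control beads at a detection p-value under 0.05. By that measure a brain array held 13241 to 14576 detected probes and a liver array 11785 to 12315. The neuronal genes Rbfox3, Stmn2 and Syt1 were detected on all 8 brain arrays, while probes of Snap25 and Nefl were detected on none. The hepatocyte genes Alb, Cyp2e1, Serpina1a and Ttr were detected on all 8 liver arrays, while the hepatocyte gene Fgb was detected on 2 of them. Some were also detected in the other tissue. Syt1 was detected on 8, Rbfox3 on 6 and Stmn2 on 0 liver arrays. Ttr was detected on 8, Cyp2e1 on 2, Serpina1a on 1 and Alb on 0 brain arrays. The Alb probe was dim in liver, at a mean intensity of 136 beside 26890 for Cyp2e1. The Pts probes gave log2 differences of 0.70 and 0.39 in brain and 0.90 and 0.58 in liver between homozygous and wild-type mice, none of which passed the test. Brain arrays fell into brighter ones (homozygous mice 1 and 2, wild-type mice 1 and 3) and dimmer ones (homozygous mice 3 and 4, wild-type mice 2 and 4), with both genotypes in each. The brains of wild-type mice 1 and 2 stood apart from the other 6 in the genes of neutrophils and monocytes and in glucocorticoid-responsive genes. The genotype differences of Edn1, Ly6c1, Vwf and Tek that use these brains are given with and without them. Of the differences between the wild-type tissues, those of Edn1 and Vwf are.

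In homozygous brain the member genes lay on both sides of wild type. Edn1, Ly6c1 and Vwf were lower in every homozygous brain than in every wild-type brain, Tek was on average higher, and the Pecam1, Tie1 and Egfl7 probes had overlapping levels. Of the 12 probes, 9 were detected on at least 4 of the 8 brain arrays and were tested, and 0 passed an adjusted p of 0.05 in limma, which called 2 of all 13862 probes (0.0144%). An unadjusted p under 0.05 was reached by 3 of the 9 and by 444 of all probes. The median log2 difference of the 9 was -0.05, with 5 below 0, beside a median of 0.0046 over all probes tested.

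Edn1 (probe ILMN_2737713, chromosome 13) was detected on all 8 brain arrays. Its log2 normalised signal was 5.68, 5.37, 5.88 and 5.46 in the homozygous brains 1 to 4 and 6.47, 6.58, 6.29 and 6.27 in the wild-type brains 1 to 4. The highest homozygous brain lay below the lowest wild-type brain. The means were 5.60 ± 0.23 in homozygous brain and 6.40 ± 0.15 in wild-type brain (SD, n = 4 each), a log2 difference of -0.80 (SE 0.14, 95% interval -1.11 to -0.50), or 1.75-fold lower. This p-value ranked 4 among the 13862 probes tested, yet the adjusted p of limma was 0.537. The two-sided exact permutation p was 0.0286, the smallest that 4 against 4 arrays allow. Of all probes tested in brain, 126 (0.909%) likewise had all homozygous brains below all wild-type brains. The probe was dim: before normalization its intensity was 174, 162, 174 and 154 in the homozygous brains and 230, 192, 223 and 184 in the wild-type brains. Its log2 difference was -0.28 without background correction and -0.32 in the authors' normalized values, against -0.68 without the brains of wild-type mice 1 and 2.

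Vwf (ILMN_2519673, chromosome 6) showed the same order of groups in brain. Its log2 signal was 7.27, 7.08, 6.90 and 7.03 in the homozygous brains and 7.77, 8.35, 7.43 and 7.55 in the wild-type brains. The groups did not overlap, and wild-type brain 2 was the highest. The log2 difference was -0.71 (SE 0.19, 95% interval -1.13 to -0.28), with an adjusted p of 1.00 in limma. It was -0.43 without wild-type mice 1 and 2. It was -0.43 within the 4 brighter arrays and -0.99 within the 4 dimmer arrays.

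Ly6c1 (ILMN_1254927, chromosome 15) had log2 signals of 8.72, 8.78, 8.72 and 8.64 in the homozygous brains and 9.72, 9.66, 9.01 and 8.91 in the wild-type brains. All homozygous brains lay below all wild-type brains, but wild-type brains 3 and 4 lay closer to the homozygous ones than to wild-type brains 1 and 2. The log2 difference was -0.61 (SE 0.19, 95% interval -1.03 to -0.19), with a limma adjusted p of 1.00. Without wild-type mice 1 and 2 it was -0.25. Ly6c1 has a near-identical neighbour, Ly6c2, of monocytes. Ly6c2 had no probe under its name, and the probe's own sequence was not used here, so signal from the pair cannot be told apart.

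In brain the leukocyte genes were likewise high in wild-type mice 1 and 2, but they did not separate the genotypes. Of 8 genes listed for neutrophils and monocytes, 3 were tested in brain (S100a8, S100a9 and Lyz2). Their mean log2 level, each gene set against its mean over the 8 brains, was between -0.90 and -0.39 in the homozygous brains. It was 2.07, 1.80, -0.67 and -0.26 in the wild-type brains 1 to 4. Wild-type brains 1 and 2 were thus the high ones, as they were for Ly6c1, Vwf and, by less, Edn1. Wild-type brain 3 lay within the range of the homozygous brains. Ngp, Camp and Ccr2, which define neutrophils or monocytes more narrowly, were detected on 0 brain arrays. The mean level of 7 glucocorticoid-responsive genes was between -0.24 and -0.06 in the homozygous brains and 0.66, 0.54, -0.27 and -0.36 in the wild-type brains. The part of either list in the Edn1, Ly6c1, Vwf and Tek values was not tested.

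Tek (ILMN_1220170, chromosome 4) ran the other way. Its log2 signal was 7.45, 7.29, 6.96 and 7.19 in the homozygous brains and 6.61, 6.20, 7.26 and 7.07 in the wild-type brains. Wild-type brains 1 and 2 were the low ones and the groups overlapped. The log2 difference was 0.44 (SE 0.22, 95% interval -0.05 to 0.93) and 0.056 without wild-type mice 1 and 2. Tie1 (ILMN_2928560, chromosome 4), its partner receptor, was detected in 6 of 8 brains. Its log2 level was 5.01 ± 0.17 in homozygous brain and 5.06 ± 0.28 in wild-type brain (SD, n = 4 each), a difference of -0.05 (95% interval -0.39 to 0.29). Kdr (ILMN_2665788, chromosome 5) was detected on 0 of 8 brain arrays and on 1 of 8 liver arrays and was tested in neither tissue.

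The junction gene Pecam1 (chromosome 11) had a pair of probes that named different transcripts and disagreed in sign. Probe 1 (ILMN_2700982) gave a log2 difference of -0.12 (95% interval -0.42 to 0.19) and probe 2 (ILMN_3147074) one of 0.17 (95% interval -0.12 to 0.46) in brain. Neither interval left out 0. Cdh5 (ILMN_2866951, chromosome 8) was detected in 2 of 8 brains, 1 of each genotype, and was not tested there. Of the probes of Egfl7 (chromosome 2), probe 1 (ILMN_3163288) differed by 0.05 (95% interval -0.32 to 0.43) and probe 2 (ILMN_1215919) by 0.17 (95% interval -0.18 to 0.51). Probe 3 (ILMN_2631417) was detected on 1 of 8 brain arrays and was not tested.

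**Figure D1:**
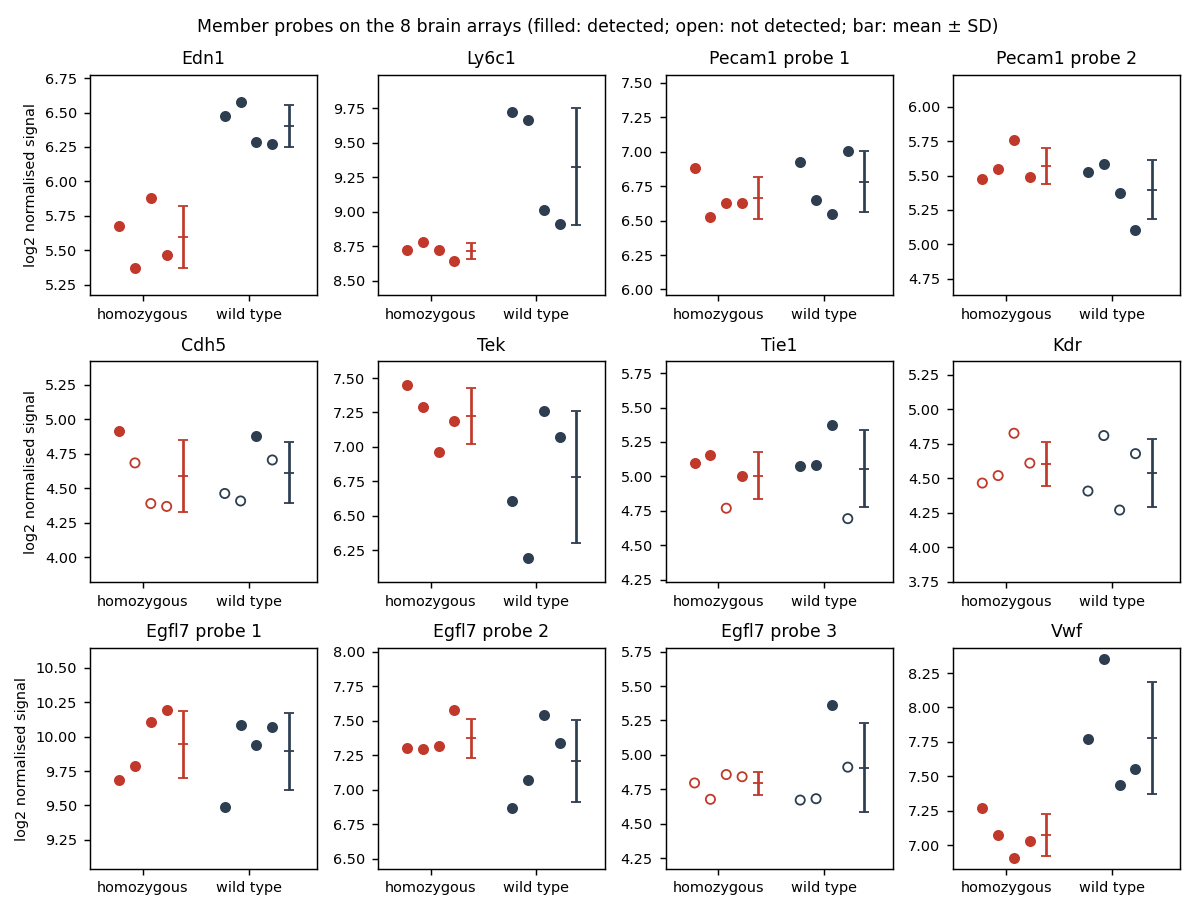
Log2 normalised signal (vertical axis) of the 12 member probes on the 8 brain arrays, homozygous left of wild type, 1 point per mouse in the order 1 to 4, filled where detected and open where not, with the mean ± SD (n = 4) as a bar. The homozygous points of Edn1, Ly6c1 and Vwf all lie below the wild-type points. Wild-type mice 1 and 2 are the highest points of Ly6c1, Vwf and, by less, Edn1, and the lowest points of Tek.

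In homozygous liver Edn1 was again lower in every mouse than in any wild-type liver, Vwf did not follow it, and the 3 Egfl7 probes were on average higher. Of the 12 probes 10 were tested in liver and 0 passed, while limma called 108 of all 11955 probes (0.903%) and 2700 probes had an unadjusted p under 0.05. Of the 10, 2 (Edn1 and Egfl7 probe 3) had an unadjusted p under 0.05. The median log2 difference of the 10 was 0.10, with 4 below 0, beside 0.02 over all probes.

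Edn1 was near the detection limit in liver, detected in 2 of 4 homozygous and 4 of 4 wild-type livers. Its log2 signal was 4.83, 4.95, 4.65 and 4.34 in the homozygous livers and 5.10, 5.48, 4.95 and 5.22 in the wild-type livers. These ranges did not overlap, though homozygous liver 2 and wild-type liver 3 were nearly level. The log2 difference was -0.50 (SE 0.16, 95% interval -0.85 to -0.14), or 1.41-fold lower, and the adjusted p of limma was 0.131. In liver 744 of all probes (6.22%) had all homozygous arrays below all wild-type arrays. The difference was -0.13 without background correction and -0.26 in the authors' normalized values. With weights for array quality it was -0.56 with an adjusted p of 0.0297 in limma, a setting under which 2928 probes passed. It was -0.40 without wild-type mice 1 and 2. The neutrophil and monocyte list (2 of 8 genes tested) had a mean level of -1.01 to -0.63 in the homozygous livers and 1.39, 1.30, -0.09 and 0.88 in the wild-type livers. Ngp, Camp, Ltf and Ccr2 were detected on 0 liver arrays, while the mean level of the 7 glucocorticoid-responsive genes was -0.43 to -0.13 in the homozygous livers and 0.61, 0.77, -0.08 and -0.12 in the wild-type livers. The part of either list in the Edn1 value was not tested.

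Vwf, detected in all 8 livers, had log2 signals of 5.82, 6.15, 6.12 and 5.92 in the homozygous livers and 6.02, 5.78, 6.03 and 5.97 in the wild-type livers. These overlapped, with a difference of 0.05 (SE 0.11, 95% interval -0.20 to 0.30). Ly6c1 was detected in 1 of 4 homozygous and 2 of 4 wild-type livers and was not tested.

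Egfl7 probe 1 read 10.00, 9.71, 9.82 and 10.04 in the homozygous livers and 9.71, 9.29, 9.94 and 9.65 in the wild-type livers. Its difference of 0.25 (95% interval -0.08 to 0.58) stood beside 0.26 for probe 2 (95% interval -0.01 to 0.53) and 0.26 for probe 3 (95% interval 0.01 to 0.51). The groups overlapped for all 3 probes, and the adjusted p of limma lay between 0.209 and 0.339. Probe 3 was detected in 4 of 4 homozygous and 2 of 4 wild-type livers. The receptors and junction genes overlapped as well. The log2 difference was -0.08 for Tek (95% interval -0.46 to 0.30), 0.14 for Tie1 (-0.18 to 0.46) and 0.19 for Cdh5 (-0.08 to 0.46). It was -0.18 (-0.43 to 0.08) and -0.07 (-0.33 to 0.19) for the Pecam1 probes.

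**Figure D2:**
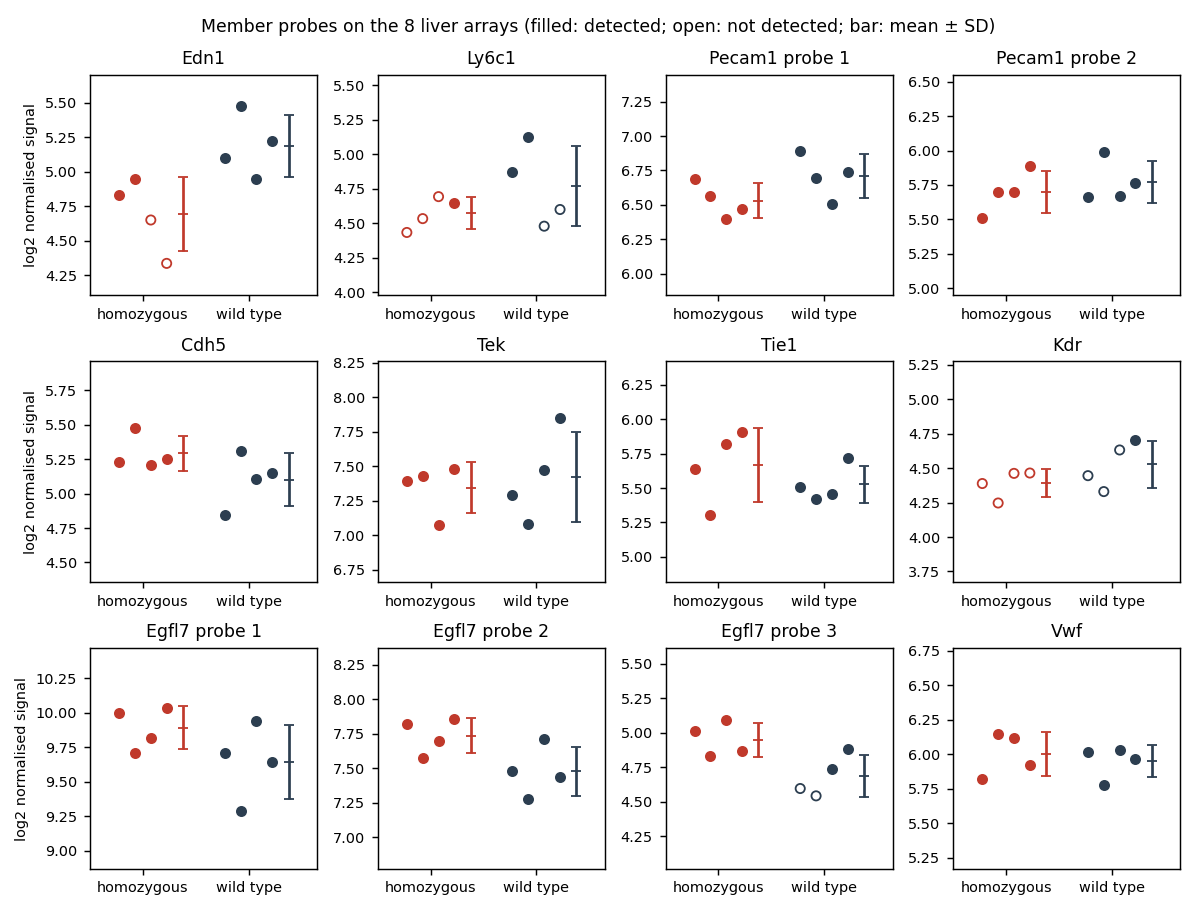
Log2 normalised signal (vertical axis) of the 12 member probes on the 8 liver arrays, drawn as for brain: homozygous left of wild type, 1 point per mouse, filled where detected, with the mean ± SD (n = 4). Edn1 is the member whose homozygous points, 2 of them not detected, all lie below the wild-type points, and the Vwf groups overlap.

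The genotype difference was compared between tissues for the 8 member probes tested in both. This fit used the group means and left out which mouse each array came from. None of the 8 passed this test, which called 8 of 10492 probes (0.0762%). The liver difference minus the brain difference was 0.31 for Edn1 (SE 0.22, 95% interval -0.15 to 0.76, adjusted p 0.609 in limma). For Vwf it was 0.76 (SE 0.23, 95% interval 0.28 to 1.24, adjusted p 0.224), and for Tek -0.52 (SE 0.29, adjusted p 0.502). Without wild-type mice 1 and 2 it was 0.29 for Edn1, 0.43 for Vwf (adjusted p 0.865) and -0.37 for Tek.

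Homozygous below wild type without overlap in both tissues was seen for Edn1 and for 16 of the 10492 probes in all (0.152%). With brain and liver averaged in each mouse, the Edn1 difference was -0.65 (SE 0.11, 95% interval -0.90 to -0.40), rank 21 of 10492 by p-value, with an adjusted p of 0.0695 in limma. This comparison called 17 probes (0.162%) and was added after the Edn1 values in each tissue had been seen. It called 0 of the 8 member probes. Without wild-type mice 1 and 2 the averaged Edn1 difference was -0.54 with an adjusted p of 0.363 in limma. Over its 12 alternatives that adjusted p lay between 0.0366, without wild-type mouse 3, and 0.363, and it passed under 1 of the 12. The averaged Edn1 difference ran from -0.71 to -0.21 over them. Vwf averaged -0.33 (SE 0.09, adjusted p 0.212) and Tek 0.18 (SE 0.17). Leaving out wild-type mice 1 and 2 gave -0.21 for Vwf and -0.13 for Tek.

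**Figure D3:**
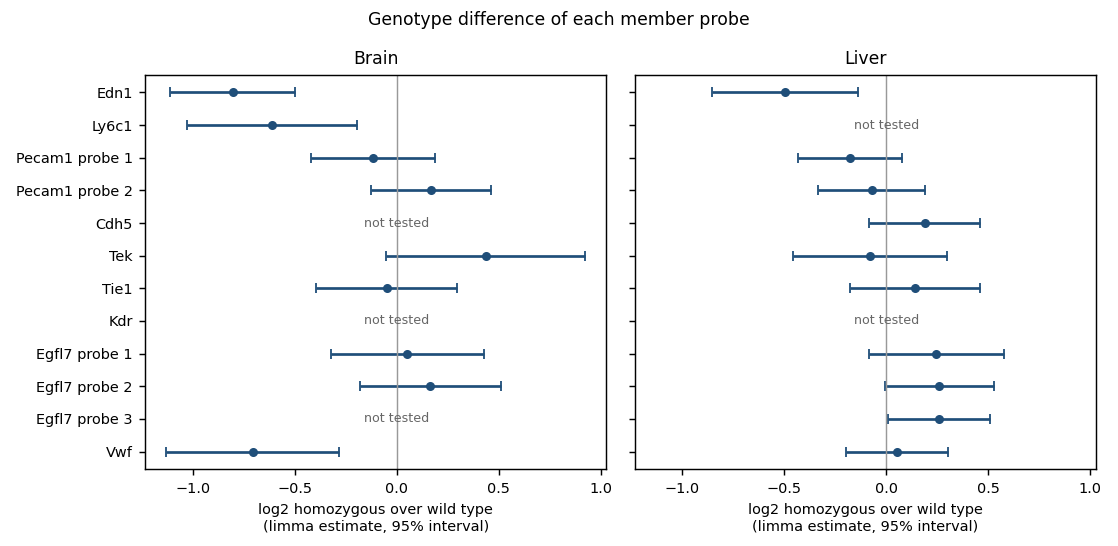
Log2 difference of homozygous over wild type (horizontal axis) for each member probe in brain and in liver, as the limma estimate with its 95% interval, n = 4 mice per genotype. The intervals of Edn1, Ly6c1 and Vwf lie below 0 in brain, and in liver that of Edn1 does while that of Egfl7 probe 3 lies just above 0. None passed after adjustment over all probes.

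The brain values of Edn1, Vwf and Ly6c1 kept their sign under all 20 other settings tried for each. The sign had little room to turn. Other filters, variance models and balanced blocks leave these differences as they are, and the groups of each gene did not overlap. They ranged from -0.90 to -0.28 for Edn1, from -0.99 to -0.43 for Vwf and from -0.75 to -0.25 for Ly6c1. With the brightness of the arrays as a block the adjusted p of Edn1 was 0.140 in limma. The difference of -0.80 could not move there, as both genotypes are equally represented in each brightness set. The Edn1 difference was -0.86 within the brighter arrays and -0.75 within the dimmer arrays.

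**Figure D4:**
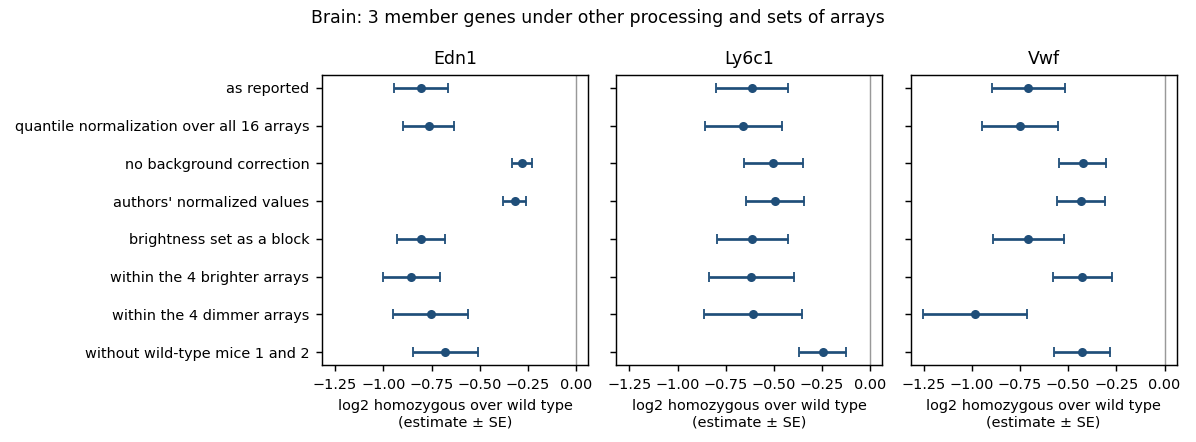
Log2 difference of homozygous over wild type in brain (horizontal axis, estimate ± SE) for Edn1, Ly6c1 and Vwf, as reported and under 7 other ways of processing or choosing the arrays. All estimates lie below 0. Edn1 is nearest to 0 without background correction (-0.28), and Ly6c1 without wild-type mice 1 and 2 (-0.25).

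The rest of the endothelin pathway did not pass the test in either tissue. Of 8 listed genes, 5 were tested in brain and 4 in liver, and 0 rose and 0 fell in each, where limma called 0.0144% and 0.903% of all probes. The median log2 difference of the list was 0.04 in brain and 0.28 in liver, beside 0.0049 and 0.02 over 1 probe of every gene tested. Ednrb, the receptor that also clears endothelin, was the brightest of the list in brain and differed by 0.17 (SE 0.13) there and by 0.14 (SE 0.21) in liver. Ece1, a converting enzyme and the brightest in liver, differed by 0.04 (SE 0.12) in brain and 0.42 (SE 0.17, adjusted p 0.187 in limma) in liver. Ece2 differed by -0.30 in brain, where 1 homozygous and 4 wild-type arrays detected it, and by -0.29 in liver. Mme, the gene of neprilysin, which degrades endothelin, differed by 0.07 in brain and 0.49 in liver (adjusted p 0.164). Edn3 was detected on no array of either tissue, and Ednra had no probe under its name.

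Of 13 genes listed as VEGF and angiopoietin ligands and receptors, angiopoietin-like genes among them, 10 were tested in brain and 9 in liver. In each 0 passed, where limma called 0.0144% and 0.903% of all probes. Their medians were -0.05 in brain and 0.08 in liver. Vegfb was the brightest in brain at a difference of -0.01 (SE 0.17), and the angiopoietin-like gene Angptl4 in liver at 0.42 (SE 0.36). Flt1, a decoy receptor for VEGF, differed by -0.26 (SE 0.16) in brain and -0.12 (SE 0.09) in liver. In brain 6 of the 10 lay below 0. The furthest from 0 there was Angpt1, the gene of an angiopoietin, at -0.51 (SE 0.13). It was detected in 3 homozygous and 4 wild-type brains and on 0 liver arrays.

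Other endothelial genes numbered 39, of which 30 were tested in brain and 27 in liver. In brain 0 passed, beside 0.0144% of all probes, and the median log2 difference was -0.06. In liver the median was 0.04 and 1 of 27 rose, beside 0.903% of all probes called. This was Klf2, a transcription factor induced by blood flow, at 0.71 (SE 0.13, adjusted p 0.0489 in limma). This call was lost on leaving out wild-type mice 1 and 2 (0.61, adjusted p 0.167). Of the 27, 12 lay below 0 in liver and 0 fell past the threshold. Furthest from 0 were falls: Icam1 at -1.89 (SE 0.65, adjusted p 0.145 in limma), Thbd at -1.11 (SE 0.49, adjusted p 0.220) and Vcam1 at -1.07 (SE 0.36, adjusted p 0.143). Thbd was detected in 1 homozygous and 3 wild-type livers. Cd93 differed by -0.72 in liver (SE 0.18, adjusted p 0.0856). Ramp2, part of the adrenomedullin receptor and the brightest of the list in brain, differed by 0.01 (SE 0.11) there, and Ly6e, the brightest in liver, by -0.997 (SE 0.25, adjusted p 0.0885). Nos3, the endothelial nitric oxide synthase, an enzyme that uses tetrahydrobiopterin, differed by 0.04 (SE 0.14) in brain and by -0.60 (SE 0.23, adjusted p 0.180) in liver. The list's mean level in brain ran from -0.13 to 0.04 over the homozygous brains and from -0.05 to 0.12 over the wild-type brains, and the ranges overlapped.

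Genes of the blood-brain barrier gave 0 calls of 11 in brain, where 0.0144% of all probes were called, and 2 of 9 in liver, where 0.903% were, both higher in homozygous mice. These were Mfsd2a, a transporter of lysophospholipids, at 1.40 (SE 0.16, adjusted p 0.00852 in limma) and Slco1a4, an organic anion transporter, at 1.23 (SE 0.18, adjusted p 0.0334). Without wild-type mice 1 and 2 Slco1a4 was at 0.96 and no longer passed (adjusted p 0.0818). Both are also made outside endothelium, in hepatocytes among other cells. Mfsd2a differed by -0.39 (SE 0.25) in brain and was the 1 listed gene to pass the test between tissues, at 1.78 (SE 0.31, adjusted p 0.0414), a call that was lost without those mice (1.62, adjusted p 0.0724). Slc2a1, the glucose transporter and the brightest barrier gene in brain, differed by -0.40 (SE 0.27) there, and Foxq1, the brightest in liver, by 0.69 (SE 0.56).

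Genes of liver sinusoidal endothelium passed in neither tissue (0 of 9 in brain, 0 of 15 in liver), with medians of -0.10 and 0.09. Of all probes limma called 0.0144% in brain and 0.903% in liver. The list's mean level ran from -0.24 to 0.04 over the homozygous brains and from 0.02 to 0.21 over the wild-type brains, and the ranges overlapped. Clec4g, the brightest in liver, differed by -0.15 (SE 0.10), and Ehd3, the brightest in brain, by 4.32e-04 (SE 0.11). Mural cell genes also passed in neither (0 of 8 in brain, 0 of 6 in liver), beside the same shares of all probes, with medians of -0.02 and -0.0087. Acta2, the brightest of them in both tissues, differed by 0.02 (SE 0.22) and -0.64 (SE 0.33).

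Lists for other cells and for stress hormones were read beside these. In liver, where 0.903% of all probes were called, 2 of 2 tested neutrophil and monocyte genes fell, S100a8 at -2.51 on the log2 scale (SE 0.48, adjusted p 0.0491 in limma) and Lyz2 at -0.96 (SE 0.18, adjusted p 0.0455), and in brain, where 0.0144% were called, 0 of 3 passed at a median of -1.71. Of 7 glucocorticoid-responsive genes 1 fell in liver, beside the same 0.903%, Ddit4, at -1.01 (SE 0.18, adjusted p 0.0455), and in brain 0 passed at a median of -0.44. Sgk1, the brightest of them in brain, differed by -0.44 (SE 0.36) there, and Tsc22d3, the brightest in liver, by 0.55 (SE 0.21). Of the 7 calls among listed genes, that between tissues included, 1 was past the threshold without wild-type mice 1 and 2, that of Mfsd2a in liver (1.66, adjusted p 0.00254), while S100a8, Lyz2 and Ddit4 did not pass (adjusted p 0.0897, 0.146 and 0.128). No gene of the lists for neurons, hepatocytes, blood or choroid plexus passed in either tissue. The brightest of these in brain, Rbfox3, Ttr, Hba-a1 and Kl, differed by -0.08, -0.06, 0.11 and -0.04. The brightest in liver, Syt1, Cyp2e1, Hba-a1 and Aqp1, differed by 0.22, 0.09, 0.73 (adjusted p 0.0576) and -0.0070.

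The 5 genes whose log2 signal followed Edn1 most closely over the 8 brain arrays, by Pearson's r, were Cacng8 (0.953), Selenos (0.939), Alg9 (0.932), Bco2 (0.926) and Higd1b (0.921). The arrays share their genotype groups, so any gene that separates them scores high, and the correlations are given as a description. Alg9, on chromosome 9, which encodes a mannosyltransferase, was past the threshold itself (adjusted p 0.00389 in limma). Its probe was not well above background in any of the 4 homozygous brains and was detected in 4 of 4 wild-type brains, which made it at least 2.08-fold lower in homozygous brain when the lowest detected signal of each array is taken as the floor. Bco2 lies on chromosome 9 too, the chromosome of Pts. Its probe was likewise detected in 0 of 4 homozygous and 4 of 4 wild-type brains. It was at least 1.22-fold lower by the same floor and did not pass. Higd1b, a gene known from pericytes, differed by -0.36 (SE 0.12, adjusted p 1.00). Its levels were 5.59 to 5.95 in the homozygous brains and 5.98 to 6.15 in the wild-type brains.

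Between the wild-type tissues, with all 16 arrays normalised together, the member genes split. Of 11 probes tested, 6 rose and 3 fell in liver against brain, where limma called 77.7% of all 15325 probes. Tek (1.30, SE 0.21), Tie1 (1.16, SE 0.14), Cdh5 (1.04, SE 0.13), Pecam1 probe 2 (1.12, SE 0.11), Pecam1 probe 1 (0.65, SE 0.13) and Egfl7 probe 2 (0.90, SE 0.14) were higher in liver on the log2 scale. Cdh5 was detected in 4 of 4 wild-type livers and 1 of 4 wild-type brains. Egfl7 probe 1 did not pass at -0.01 (SE 0.17), nor did Egfl7 probe 3 at 0.27 (SE 0.14).

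Ly6c1 averaged 5.10 ± 0.42 in wild-type liver, where 2 of 4 arrays detected it, and 9.16 ± 0.46 in wild-type brain (SD, n = 4 each), a difference of -4.06 (SE 0.21, adjusted p 4.69e-12 in limma). As the liver level was at the detection limit, the size of this difference is uncertain: it ran from -4.56 with each tissue normalised on its own to -2.26 without background correction. Vwf averaged 6.39 ± 0.11 in wild-type liver and 7.50 ± 0.44 in wild-type brain, a difference of -1.10 (SE 0.17, adjusted p 1.06e-05), which ran from -1.83 to -0.60 over the same alternatives and was -0.76 without wild-type mice 1 and 2. Edn1 averaged 5.64 ± 0.24 in wild-type liver and 6.05 ± 0.15 in wild-type brain, a difference of -0.41 (SE 0.18, adjusted p 0.0498). The Edn1 call was lost when a wild-type mouse was left out, whichever of the 4, and the difference was -1.21 with each tissue normalised on its own and -0.14 without background correction. Under normalization within each tissue Pecam1 probe 1 gave -0.073, Egfl7 probe 3 gave -0.22 and Egfl7 probe 2 gave 0.27, so for these probes the sign or the call depended on the scaling. Tek, Tie1, Cdh5 and Pecam1 probe 2 kept their sign and call but were smaller: with each tissue normalised on its own Tek was at 0.64, Tie1 at 0.47, Cdh5 at 0.49 and Pecam1 probe 2 at 0.37, and without background correction they were at 0.72, 0.34, 0.28 and 0.36.

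On this joint scale the Edn1 level was 4.99 ± 0.42 in homozygous liver, 5.64 ± 0.24 in wild-type liver, 5.28 ± 0.20 in homozygous brain and 6.05 ± 0.15 in wild-type brain (SD, n = 4 each). Ordered by level, homozygous liver came lowest, then homozygous brain, wild-type liver and wild-type brain. Neighbours in this order overlapped between single mice: homozygous liver (4.42 to 5.38) with homozygous brain (5.09 to 5.53), homozygous brain with wild-type liver (5.38 to 5.95), and wild-type liver with wild-type brain (5.91 to 6.23). The middle of the order depended on the scaling. With each tissue normalised on its own, homozygous brain (5.60) lay above wild-type liver (5.19). The mean intensity before normalization was likewise higher in homozygous brain (166) than in wild-type liver (134).

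**Figure D5:**
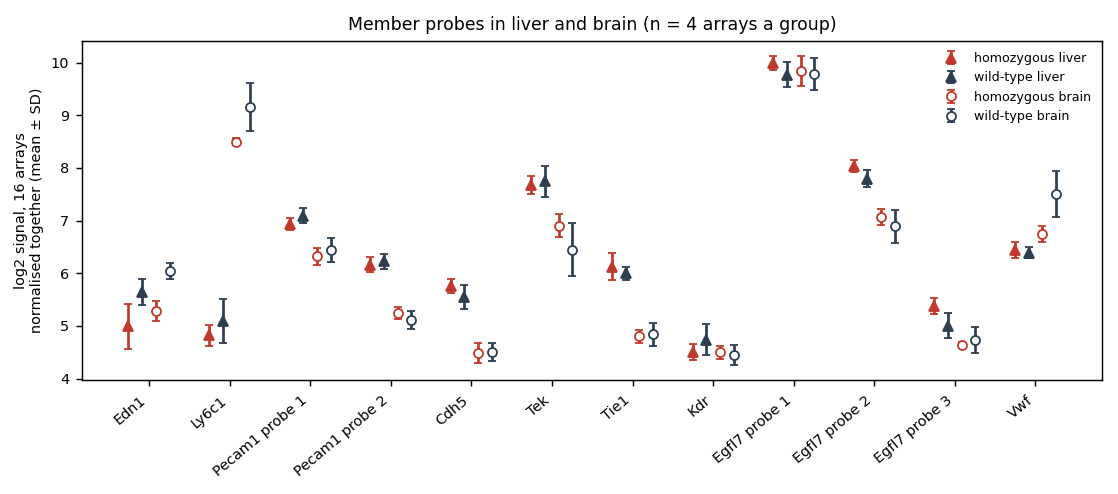
Log2 signal (vertical axis, mean ± SD, n = 4 arrays) of each member probe in homozygous liver, wild-type liver, homozygous brain and wild-type brain, with all 16 arrays normalised together. Levels can be compared within a probe and not between probes. Ly6c1, Vwf and, by less, Edn1 are lower in wild-type liver than in wild-type brain, and Tek, Tie1, Cdh5 and both Pecam1 probes are higher.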

How the data were processed

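RNA of brain and liver from 4 homozygous and 4 wild-type mice was measured on 16 single-colour Illumina bead arrays; the mouse identifiers in the labels pair the brain and liver of each mouse. The authors deposited bead summary intensities that are not normalized between arrays, each with a detection p-value deposited by the authors beside it, and a second table of intensities they had normalized. Per the submitters' processing notes, GenomeStudio 2011.1 was used; its settings and a genome build are not given in the sources used here.

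From the deposited intensities, background was corrected with nec (limma 3.58.1, R 4.3.3; detection p-values, offset 16), followed by quantile normalization within each tissue and log2. Probes detected (p under 0.05) on at least 4 of the 8 arrays of a tissue were tested with lmFit and eBayes over all such probes, with Benjamini-Hochberg adjustment and a threshold of 0.05. The comparison of the wild-type tissues used all 16 arrays normalized together and probes tested in either tissue, and the comparison of genotype differences used probes tested in both. Both were fitted on the group means and left out which mouse each array came from. A fit with the mouse as a block was run as an alternative. Single values were also tested by a two-sided exact permutation test. The fit was tested on simulated data. Precision is limited by the number of mice.

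The members and 12 gene lists were chosen with earlier results of these data known. The lists were other endothelial genes, the endothelin pathway, VEGF and angiopoietin ligands and receptors, the blood-brain barrier, liver sinusoidal endothelium, mural cells, neurons, hepatocytes, blood, neutrophils and monocytes, choroid plexus and glucocorticoid-responsive genes, with 1 probe per gene, the brightest. All member probes are named; of each list, the genes past a genotype comparison and the brightest gene; and the 5 genes most correlated with Edn1 in brain. S100a9, Ece2, Mme, Flt1, Angpt1, Nos3, Icam1, Thbd, Vcam1 and Cd93 were named besides, after their values were seen. Symbols were updated through RefSeq (GRCm38.p6), which also gave the promoter windows; 1719 probes carry no symbol and were tested but not named. Alternatives were other normalizations, filters, variance models, blocks and sets of arrays. Homozygous and wild-type mice of the same number are different animals, and their deviations from the group means correlated between -0.51 and 0.56 in brain and between -0.04 and -0.0018 in liver, so the number was not taken to pair them.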

Additional observations from a re-analysis of the deposited data

Results flagged for a closer look

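Among the 48 sets of 4 arrays (12 probes in 4 groups), 1 held a mouse far from the other 3. Egfl7 probe 2 read 7.58 in the brain of homozygous mouse 4, beside 7.29 to 7.32 in the other 3 homozygous brains. The gap was 0.923 of the range of that group, above Dixon's critical value for 4 values. Chance gives about 1 such set in 20.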

How the results depend on the processing

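No member probe passed in brain or in the test between tissues under any alternative run. Counts over all probes moved more. In brain (2 as reported) limma called 1 probe without background correction, 1 in the authors' normalized values, 0 with detection on all 8 arrays, 1 with the replicate block, 5 with brightness as a block, 4 within the brighter arrays, 1 within the dimmer arrays and 2 to 4 with a mouse left out. The case with 0 had fewer probes tested and left out the Alg9 probe, which was called as reported and was detected on 4 brain arrays. In liver (108) it called 49 with all 16 arrays normalized together, 30 with detection on all 8 arrays, 35 with no filter, 2928 with array weights, 32 with the replicate block, 23 without wild-type mice 1 and 2, and 9 to 955 with a mouse left out, the highest without wild-type mouse 3. Between tissues (8) it called 18 without background correction, 17 in the authors' values, 3 with the mouse as a replicate block, 1 without wild-type mice 1 and 2, and 0 to 70 with a mouse left out. Averaged over tissues (17) it called 9 without background correction, 6 without wild-type mice 1 and 2, and 2 to 69 with a mouse left out. The Edn1 difference in liver passed with array weights (-0.56), and so did that of Egfl7 probe 3 (0.34, adjusted p 0.0409 in limma). The averaged Edn1 difference was -0.71 to -0.57 with a mouse left out and -0.71 to -0.21 over all 12 alternatives. The Edn1 tissue difference missed the threshold in the authors' values (-0.17), without wild-type mice 1 and 2 (-0.39) and with most single mice left out (-0.46 to -0.35). Signs turned for values near 0. Without wild-type mice 1 and 2 these were Egfl7 probe 1 (-0.061) and probe 2 (-0.072) in brain, Pecam1 probe 1 between tissues (0.017) and Tek averaged (-0.13). With each tissue normalized alone they were the tissue differences of Egfl7 probe 3 (-0.22) and Pecam1 probe 1 (-0.073). With a mouse left out, Egfl7 probe 1 ran from -0.086 to 0.14 in brain and from -0.18 to 0.16 between the wild-type tissues. Pecam1 probe 2 then ran from -9.55e-04 to 0.12 averaged and from -0.13 to 0.0024 in liver, and Tek in liver from -0.19 to 0.062. Tie1 in brain ran from -0.17 to 0.055, and Vwf in liver from -0.0023 to 0.12. The cause of these moves was not tested. With the replicate block the Edn1 difference was -0.80 in brain (adjusted p 1.00) and -0.50 in liver (adjusted p 0.146). With the mouse as block it was 0.31 between tissues. These blocks are balanced, so they could change the p-values and not the differences. The block changed no member's call. Dim probes limit what can be read: Edn1 in liver, Cdh5, Tie1 and Egfl7 probe 3 in brain were not detected on every array.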
